A study of Homo sapiens with 51 samples.

Results

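The genes described here are 10 transcripts that growth factor signalling through RAS and the MAP kinase ERK is known to switch on: DUSP4, DUSP5, DUSP6, SPRY2, SPRY4, SPRED1, ETV4, ETV5, PHLDA1 and FOSL1. They were taken by symbol from a table of 25421 gene symbols, and all 10 were found in it. Counts were measured by PLATE-seq, in which cDNA of the 3′ ends of transcripts is barcoded well by well and pooled, in 51 libraries of 5 human pancreatic ductal adenocarcinoma (PDA) lines, in 17 groups of 3. HPAFII and PATU8988S had untreated libraries only. KP4, PANC1 and PK45H had untreated libraries and 4 lentiviral groups each: an open reading frame of mCherry, a fluorescent protein and the labelled negative control, or of OVOL2, a zinc-finger transcription factor, each alone or together with a virus for M2rtTA. M2rtTA is a transactivator that drives tetracycline-inducible promoters when doxycycline is present. Per the labels, transduction was at a multiplicity of infection of 2 with 8 µg/ml polybrene, puromycin (2.5 µg/ml) and doxycycline (0.6 µg/ml) followed on the next day, and RNA (100 ng per library) was taken after 6 days in all. The mCherry groups thus share virus, puromycin and doxycycline with the OVOL2 groups, and each line is 1 source of cells. The labels call the transductions triplicates and do not say whether the libraries came from separate cultures, so the p-values measure only the spread between these libraries, which may be technical.

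ERK signalling limits itself by feedback. The DUSP genes encode phosphatases that remove phosphate from MAP kinases, Sprouty and Spred proteins act higher up, at the receptor adaptors and at RAS and RAF, and ETV4, ETV5 and FOSL1 encode transcription factors through which the pathway acts on other genes. These transcripts are often read as an output of the pathway. OVOL2 is known as a transcription factor of epithelial cells that holds down mesenchymal genes.

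Library totals were 1165399 to 7490556 counts, and the lowest belonged to untreated HPAFII replicate 2, which also stood apart from the other 2 libraries of its group in several of the 10 genes. OVOL2 itself was at 0 to 2.21 CPM (counts scaled to a common library total) in the mCherry libraries and at 0.201 to 1.87 CPM in the OVOL2 libraries without M2rtTA. With M2rtTA it was at 1.46 to 10.5 CPM, a log2 fold change against mCherry of 2.15 (SE 0.44, adjusted p = 0.00021) as a mean over the 3 lines. Since PLATE-seq reads 3′ ends, a transduced reading frame without the gene's own 3′ end may escape these counts, and this was not tested. The 5 ductal carcinoma markers (KRT8, KRT18, KRT19, KRT7 and EPCAM) summed to 608 to 14340 CPM, with KP4 the lowest at 608 to 1183 CPM. With OVOL2, 2 of these 5 rose over the lines without M2rtTA and 5 with it, and their part in the results was not tested. Fibroblast markers summed to at most 64.8 CPM, leukocyte markers to at most 42.8 CPM, endothelial markers to at most 13.7 CPM and acinar markers to at most 7.39 CPM. CDH1, the epithelial cadherin, rose by a log2 fold change of 2.49 without M2rtTA and 2.52 with it, and ZEB1, a repressor of epithelial genes, fell by 2.64 and 1.95. The mean over lines called 18.1% of 14943 genes without M2rtTA and 32.9% with it, at an adjusted p under 0.05 in edgeR's quasi-likelihood test.

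Against this background the 10 genes did not move as a block with OVOL2. Over the 3 lines without M2rtTA, 3 of the 10 passed the test: DUSP5 rose, and ETV5 and SPRED1 fell. With M2rtTA, 4 passed, DUSP5 higher and ETV5, SPRED1 and FOSL1 lower. Of all genes tested, 9.32% were called higher and 8.81% lower without M2rtTA, and 15.7% higher and 17.3% lower with it. The median log2 fold change of the 10 genes was -0.16 without M2rtTA and -0.21 with it, and that of all genes tested was 0.00 and 0.03. In bulk libraries, a change in every cell and a change in the share of cells that express a gene cannot be told apart. Within single lines, 60 tests (10 genes, 3 lines, with and without M2rtTA) gave 7 rises, 11 falls and 42 results that did not pass. DUSP6, SPRY2, ETV4 and PHLDA1 passed in none of their 6 tests.

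By line, 1 gene rose and 2 fell in KP4 without M2rtTA, where 6.82% of all genes were called (3.26% higher and 3.56% lower). With M2rtTA, 3 fell there, beside 22.4% (9.91% higher and 12.5% lower). PANC1 had 1 rise without M2rtTA, beside 5.08% (2.12% higher and 2.96% lower), and 1 rise and 3 falls with it, beside 13.9% (5.76% and 8.18%). PK45H had 2 rises and 1 fall without M2rtTA, beside 8.39% (3.58% and 4.81%), and 2 of each with it, beside 15.9% (7.45% and 8.4%). DUSP5 and ETV5 accounted for 10 of these 18 calls, and their OVOL2 and mCherry libraries did not overlap in any of the 6 pairs of groups. Over the 6 pairs of groups, 11.1% to 17.3% of all genes had every OVOL2 library above every mCherry library, and 12.3% to 19.2% had every one below.

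**Figure D1:**
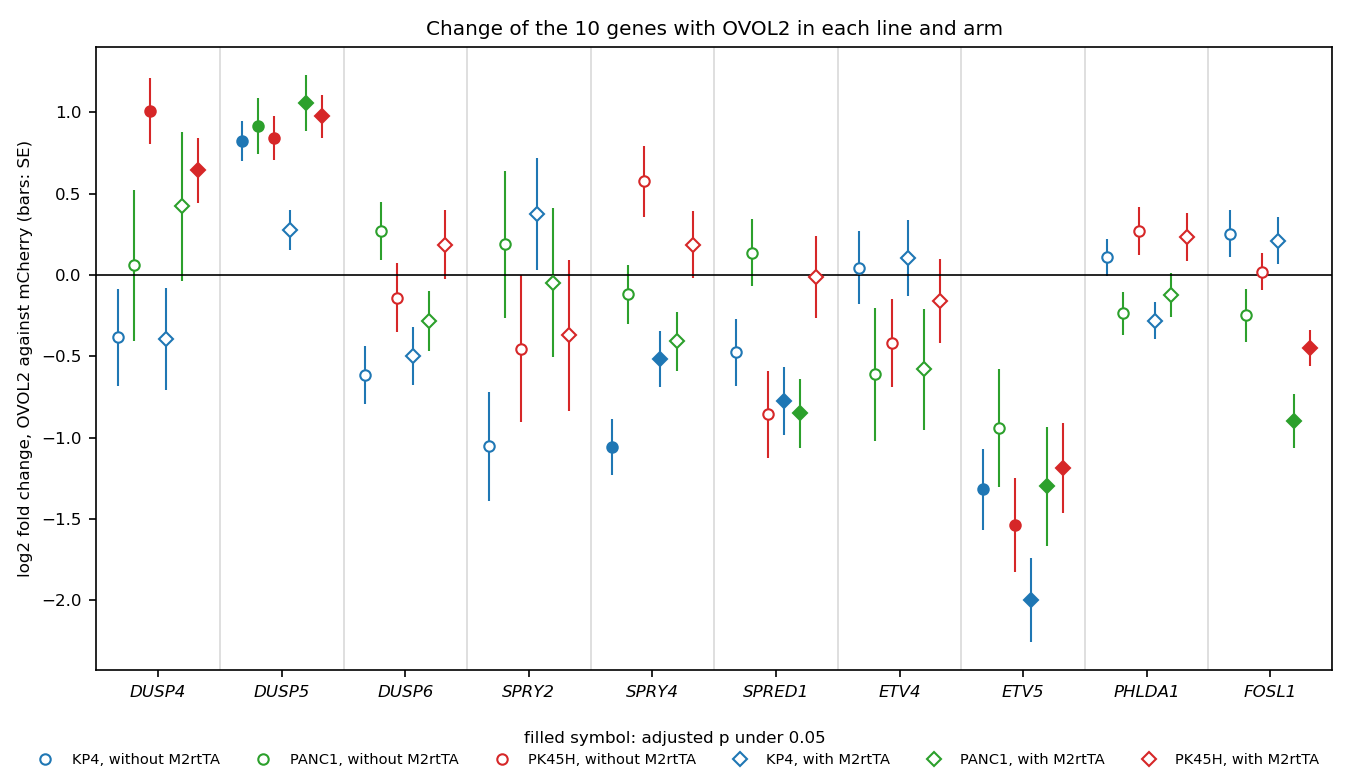
Log2 fold change of each gene, OVOL2 against mCherry, in KP4, PANC1 and PK45H without (circles) and with (diamonds) M2rtTA; bars are the standard error, and filled symbols mark an adjusted p under 0.05. DUSP5 lies above 0 and ETV5 below 0 in all 6 comparisons, while DUSP4 passes in PK45H and SPRY4 in KP4. With M2rtTA, SPRED1 also passes in KP4 and PANC1, and FOSL1 in PANC1 and PK45H.

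Among the phosphatases, DUSP5 (chromosome 10, 110497907-110511533 in RefSeq on GRCh38.p14), a nuclear enzyme that binds and inactivates ERK, rose. Without M2rtTA, KP4 had 27.4, 26.3 and 25.5 CPM with mCherry and 48.7, 44.1 and 47.1 with OVOL2. PANC1 had 18.2, 25.2 and 20.7 CPM with mCherry and 40.5, 34.6 and 45.5 with OVOL2. PK45H had 28.7, 24.0 and 26.2 CPM with mCherry and 48.6, 50.2 and 45.6 with OVOL2. In each line the lowest OVOL2 library lay clearly above the highest mCherry library. The log2 fold changes were 0.83 (SE 0.12, adjusted p = 0.00126) in KP4, 0.92 (SE 0.17, adjusted p = 0.00703) in PANC1 and 0.84 (SE 0.14, adjusted p = 0.00145) in PK45H. Thinning lost the KP4 call (0.72, adjusted p = 0.0833). The mean over lines was 0.88 (SE 0.08, adjusted p = 1.8e-10), a 1.84-fold rise, and a difference between the lines did not pass the test (adjusted p = 0.955).

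With M2rtTA, DUSP5 stood at 55.8, 63.4 and 65.99 CPM in the PANC1 OVOL2 libraries against 29.4, 26.0 and 35.9 with mCherry. PK45H had 74.4, 57.2 and 66.3 CPM with OVOL2 and 35, 30.5 and 35.4 with mCherry. KP4 had 31.7, 36.3 and 34.3 CPM with OVOL2 and 25.8, 29.9 and 28.9 with mCherry, so that its groups also did not overlap but lay close together. The log2 fold changes were 1.06 (SE 0.17, adjusted p = 0.000916) in PANC1 and 0.98 (SE 0.13, adjusted p = 0.000258) in PK45H. In KP4 it was 0.28 (SE 0.12, adjusted p = 0.123), which did not pass. The difference between the 3 lines in this arm passed the test (adjusted p = 0.0102), but not with all libraries thinned to the smallest total (adjusted p = 0.348) or with only the groups compared in the fit (adjusted p = 0.0728). As a mean over lines the change was 0.77 (SE 0.08, adjusted p = 8.94e-10), and every alternative kept the call in both arms, with values of 0.73 to 1.06 with M2rtTA and 0.84 to 0.97 without.

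DUSP4, a nuclear phosphatase of ERK and other MAP kinases, rose in PK45H, the line where its untreated mean was highest, and did not pass in KP4 or PANC1. PK45H had 75.4, 45.4 and 70.8 CPM with mCherry and 132, 133 and 128 with OVOL2, a log2 fold change of 1.01 (SE 0.20, adjusted p = 0.00693). With M2rtTA it had 50.95, 76.1 and 75.3 CPM with mCherry and 120.1, 104 and 90.9 with OVOL2, a log2 fold change of 0.64 (SE 0.20, adjusted p = 0.0431). The groups did not overlap in either arm. The second call was near the threshold, and 14 of 25 alternatives lost it. Leaving out any 1 of 10 of the 15 libraries of the line did so, with adjusted p-values up to 0.174. So did the replicate block (adjusted p = 0.0667), no filter (0.0926), 1 fit of all libraries (0.17) and only the groups compared (0.0702). In PANC1 with M2rtTA, 1 OVOL2 library (replicate 1) had 18.8 CPM and the other two 4.45 and 4.46, so the group spanned the mCherry range of 5.34 to 8.33 CPM. That library also had the highest ETV5 of its group. The DUSP4 log2 fold changes were -0.38 and -0.39 in KP4 and 0.06 and 0.42 in PANC1, where it was -0.58 (adjusted p = 0.257) without that library. A difference between the lines did not pass either (adjusted p = 0.17 without and 0.32 with M2rtTA).

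DUSP6 (chromosome 12, 89347235-89352501), a cytoplasmic phosphatase that is selective for ERK and widely used as a readout of its activity, passed in no line against mCherry. KP4 came nearest. Its mCherry libraries had 88.3, 78.9 and 72.7 CPM and its OVOL2 libraries 47.2, 54.8 and 54.0, without overlap, and the log2 fold change was -0.61 (SE 0.18, adjusted p = 0.0543). It passed in 8 of 25 alternatives, with DESeq2 (adjusted p = 0.027), robust dispersion (0.0364), the replicate block (0.0442), the filter on mean counts (0.0482) and only the groups compared (0.0486), without mCherry + M2rtTA replicate 1 (0.0311) or 2 (0.0447), and with untreated libraries as the control. With M2rtTA the KP4 value was -0.50 (SE 0.18, adjusted p = 0.0589), and the 3 OVOL2 libraries (49.3, 52.8 and 60.7 CPM) overlapped the mCherry libraries (56.9, 94.5 and 79.6 CPM). It passed with robust dispersion (adjusted p = 0.0438) and without mCherry + M2rtTA replicate 1 (adjusted p = 0.0144). Against the untreated KP4 libraries (82.6, 104 and 112 CPM) as the control, an alternative chosen after the data were seen, DUSP6 was lower by log2 values of -0.92 (adjusted p = 0.00655) and -0.85 (adjusted p = 0.00324). The values against mCherry were 0.27 and -0.28 in PANC1 and -0.14 and 0.19 in PK45H. Against untreated libraries, PANC1 without M2rtTA was on the higher side, at 0.75 (adjusted p = 0.0164).

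SPRY4 (chromosome 5, 142310430-142325021), a Sprouty protein that restrains signalling from receptor tyrosine kinases to RAS, fell in KP4. KP4 had 62.0, 41.9 and 46.5 CPM with mCherry and 26.9, 21.1 and 23.8 with OVOL2, a log2 fold change of -1.06 (SE 0.17, adjusted p = 0.00238). PK45H had 8.84, 10.5 and 13.6 CPM with mCherry and 21.2, 13.6 and 15.4 with OVOL2, a log2 fold change of 0.58 (SE 0.22, adjusted p = 0.121). PANC1 stayed between, with 46.6, 40.7 and 34.0 CPM against 34.4, 37.3 and 39.0 and a value of -0.12 (SE 0.18, adjusted p = 0.787). The groups did not overlap in KP4, where OVOL2 was lower, or in PK45H, where it was marginally higher. The test of the difference between lines passed (adjusted p = 0.00077), but not with libraries thinned to the smallest total (adjusted p = 0.0954). The mean over lines was -0.18 (SE 0.11, adjusted p = 0.274). With M2rtTA, KP4 had 30.3, 42.4 and 32.6 CPM with mCherry and 20.3, 26.3 and 26.6 with OVOL2, a log2 fold change of -0.52 (SE 0.17, adjusted p = 0.0464). That call was lost in 19 of 25 alternatives. Leaving out any 1 of 11 of the 15 KP4 libraries lost it, with adjusted p-values up to 0.185. So did DESeq2 (adjusted p = 0.0567), RLE scaling (0.0561), no filter (0.0948) and the filter on mean counts (0.0503). The replicate block (0.0716), thinning (0.16), 1 fit of all libraries (0.12) and only the groups compared (0.105) lost it too. A difference between lines did not pass in this arm (adjusted p = 0.177).

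The sequence before the SPRY4 start is shown because SPRY4 is the gene of the 10 whose OVOL2 effect differed between lines without M2rtTA and that has an entry in the RefSeq promoter table (GRCh38.p14). It covers the 250 bases before the annotated start, chr5:142324248-142324497, on the minus strand, read 5′ to 3′, and has no capitals because no motif searched was found in it.

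SPRY4 promoter: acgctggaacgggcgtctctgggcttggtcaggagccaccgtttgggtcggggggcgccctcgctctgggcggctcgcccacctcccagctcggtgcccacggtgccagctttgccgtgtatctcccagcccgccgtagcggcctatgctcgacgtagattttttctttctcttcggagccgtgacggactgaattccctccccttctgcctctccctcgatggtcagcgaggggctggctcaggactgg

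The table held 7 entries for 5 of the 10 genes: 3 for SPRY2 and 1 each for DUSP6, SPRY4, SPRED1 and PHLDA1. Over the 300 bases of each entry (250 before and 50 after the start), both strands were searched for CCGTTA, the core bound by OVOL proteins, GGAAGT, a core of ETS factors such as ETV4 and ETV5, and TGANTCA, the AP-1 element bound by dimers with FOSL1. CCGTTA was found in 0 of the 7 entries, and in 3.07% of all 35116 promoters in the table. GGAAGT was found in 1 of the 7, beginning 6 bases before the start of a SPRY2 entry, and in 22.8% of all. TGANTCA was found in 0 of the 7 and in 7.71% of all. With 1 match in all, no motifs overlapped, and the counts say only which letters the windows hold.

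SPRED1 (chromosome 15, 38252836-38357249), which brings the RAS inhibitor neurofibromin to the membrane, fell in the mean over lines in both arms. With M2rtTA, PANC1 had 34.9, 24.2 and 20.8 CPM with mCherry and 15.8, 13.2 and 14.3 with OVOL2. KP4 had 21.3, 19.2 and 14.2 CPM with mCherry and 11.1, 10.8 and 9.74 with OVOL2. PK45H had 14.8, 14.2 and 16.0 CPM with mCherry and 10.9, 18.4 and 15.4 with OVOL2. The groups of PANC1 and KP4 did not overlap, and the PK45H OVOL2 libraries lay on both sides of the mCherry libraries. The log2 fold changes were -0.85 (SE 0.21, adjusted p = 0.0167) in PANC1, -0.77 (SE 0.21, adjusted p = 0.0172) in KP4 and -0.01 (SE 0.25, adjusted p = 0.986) in PK45H. Thinning lost both calls (adjusted p = 0.073 in PANC1 and 0.125 in KP4). The PANC1 call was also lost without mCherry + M2rtTA replicate 1 or OVOL2 + M2rtTA replicate 2 or 3 (adjusted p up to 0.0929), and the KP4 call without mCherry + M2rtTA replicate 1 or OVOL2 + M2rtTA replicate 3 (up to 0.0833). Over the lines the mean change was -0.55 (SE 0.13, adjusted p = 0.00148), and a difference between lines did not pass (adjusted p = 0.169).

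Without M2rtTA, the largest SPRED1 difference was in PK45H, with 14.7, 12.0 and 15.6 CPM for mCherry and 6.14, 11.8 and 5.81 for OVOL2, a log2 fold change of -0.85 (SE 0.27, adjusted p = 0.0657). It passed in 4 of 25 alternatives. These were DESeq2 (adjusted p = 0.0433), 1 fit of all libraries (0.0348), without OVOL2 replicate 2 (-1.27, 0.0105) and untreated libraries as the control (-1.22, 0.00725). KP4 had 17.1, 23.0 and 14.3 CPM against 10.8, 12.7 and 15.3, and a value of -0.48 (SE 0.21, adjusted p = 0.204). PANC1 had 25.7, 21.0 and 33.2 CPM against 27.9, 29.0 and 30.0, and a value of 0.14 (SE 0.21, adjusted p = 0.785). The mean over lines was -0.38 (SE 0.13, adjusted p = 0.0439), and leaving out any 1 of 12 of the 45 libraries lost that call, with adjusted p-values up to 0.122, as did thinning (adjusted p = 0.204). SPRY2 (chromosome 13, 80335976-80341126), the Sprouty member with 6 to 118 counts per library, passed in no comparison of OVOL2 with mCherry. Its KP4 libraries without M2rtTA had 5.64, 4.93 and 6.44 CPM with mCherry and 2.75, 3.04 and 2.35 with OVOL2, without overlap, at a log2 fold change of -1.05 (SE 0.33, adjusted p = 0.0784). The untreated KP4 libraries had 2.01, 1.72 and 2.99 CPM, on the side of the OVOL2 libraries, and against them the value was 0.30 (adjusted p = 0.701), and with M2rtTA 1.02 (adjusted p = 0.0492).

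**Figure D2:**
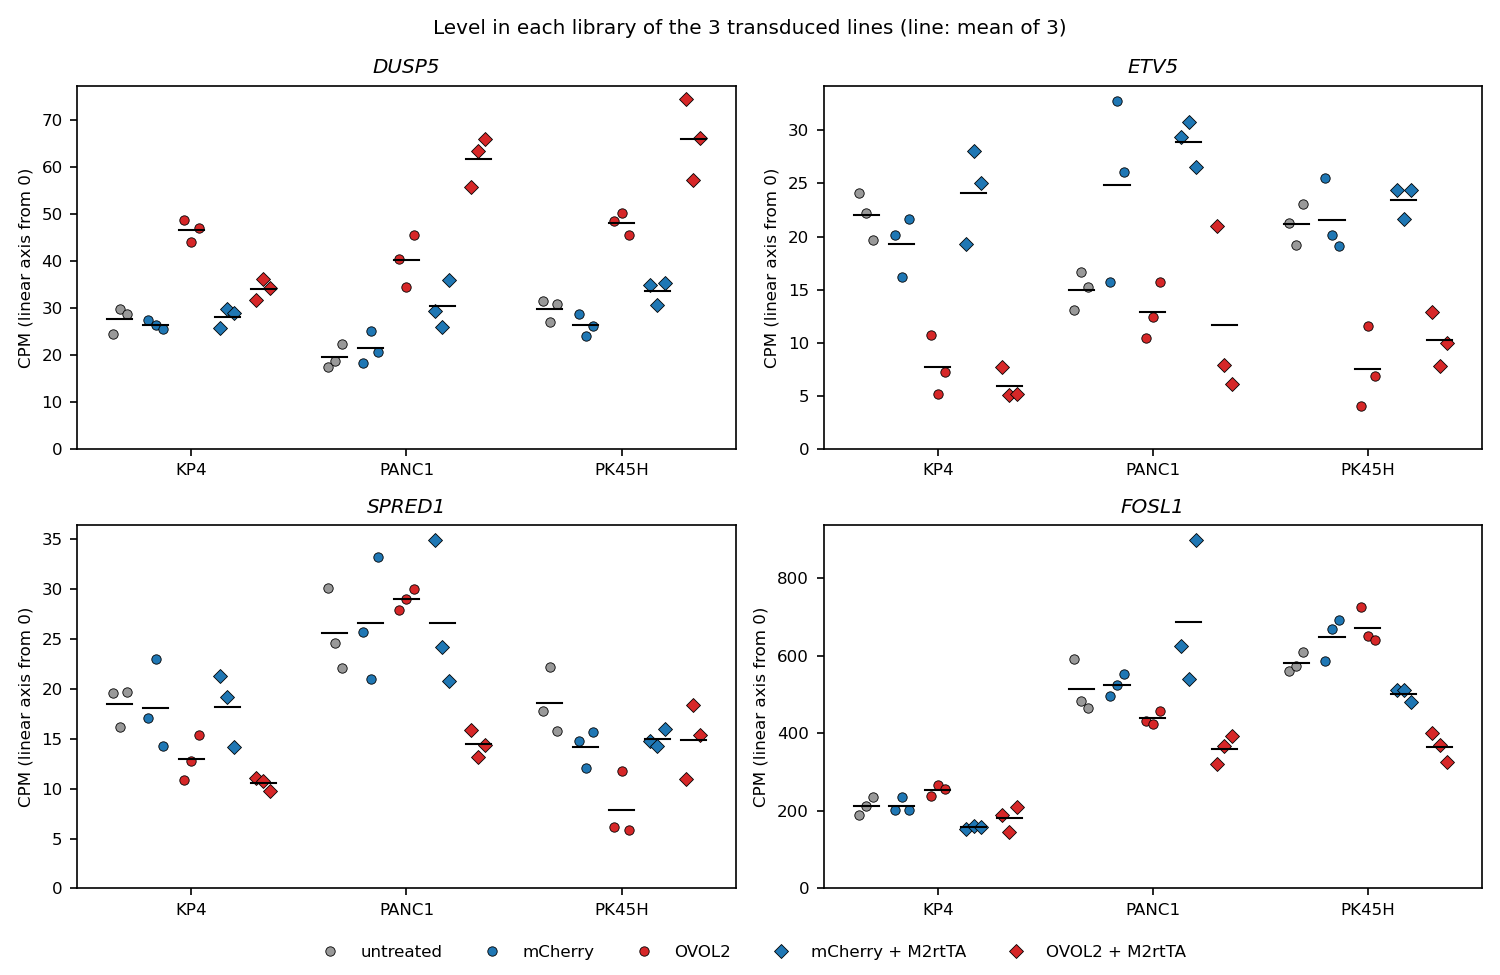
CPM of DUSP5, ETV5, SPRED1 and FOSL1 in each library of KP4, PANC1 and PK45H, with a bar at the mean of 3; grey is untreated, blue mCherry, red OVOL2, circles without and diamonds with M2rtTA. The OVOL2 libraries lie above mCherry for DUSP5 and below it for ETV5 in every pair, while FOSL1 is lower with OVOL2 in PANC1 and PK45H where M2rtTA is present, and the PANC1 OVOL2 + M2rtTA library at 21.0 CPM stands apart for ETV5.

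ETV5 (chromosome 3, 186046314-186109089), an ETS transcription factor of the PEA3 group and a direct output of ERK, fell in 5 of the 6 comparisons within lines and did not pass in PANC1 without M2rtTA. Without M2rtTA, KP4 had 20.1, 16.2 and 21.6 CPM with mCherry and 10.7, 5.14 and 7.20 with OVOL2. PK45H had 25.5, 20.2 and 19.1 CPM with mCherry and 4.01, 11.6 and 6.84 with OVOL2. PANC1 had 15.8, 32.7 and 26.1 CPM with mCherry and 10.5, 12.5 and 15.7 with OVOL2. No groups overlapped, but in PANC1 the highest OVOL2 and the lowest mCherry library nearly met. The log2 fold changes were -1.32 (SE 0.25, adjusted p = 0.00593) in KP4, -1.53 (SE 0.29, adjusted p = 0.00434) in PK45H and -0.94 (SE 0.36, adjusted p = 0.166) in PANC1. Thinning lost the KP4 call (-0.92, adjusted p = 0.191). Averaged over lines the change was -1.24 (SE 0.19, adjusted p = 5.13e-06), a 2.37-fold fall, and a difference between lines did not pass (adjusted p = 0.766).

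With M2rtTA, KP4 had 19.3, 28.1 and 25.0 CPM of ETV5 with mCherry and 7.71, 5.06 and 5.12 with OVOL2. PK45H had 24.4, 21.7 and 24.4 CPM with mCherry and 12.9, 7.77 and 9.94 with OVOL2. PANC1 had 29.4, 30.8 and 26.6 CPM with mCherry and 21.0, 7.89 and 6.11 with OVOL2. The OVOL2 libraries were lower without overlap in each line, and PANC1 replicate 1 stood well above the other two of its group. The log2 fold changes were -2.00 (SE 0.26, adjusted p = 0.000112) in KP4, -1.19 (SE 0.28, adjusted p = 0.0108) in PK45H and -1.30 (SE 0.37, adjusted p = 0.0296) in PANC1. Without that PANC1 library the value was -1.99 (adjusted p = 0.000847), and 4 other single libraries left out lost the PANC1 call, with adjusted p-values up to 0.122, as did thinning (0.0772) and only the groups compared (0.0844). The mean over lines was -1.50 (SE 0.19, adjusted p = 6.31e-08), a 2.82-fold fall, and every alternative kept the call of both means.

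In PANC1 the ETV5 result depended on the control. The untreated PANC1 libraries had 13.1, 16.6 and 15.2 CPM, beside 10.5 to 15.7 in the OVOL2 libraries without M2rtTA and under 5 of the 6 mCherry libraries of the line. With M2rtTA, 2 OVOL2 libraries (7.89 and 6.11 CPM) lay below the untreated ones and 1 (21.0 CPM) above. Against untreated libraries the PANC1 values were -0.19 (adjusted p = 0.828) without M2rtTA and -0.34 (adjusted p = 0.598) with it. In KP4 and PK45H the untreated libraries lay with the mCherry libraries, and the fall against them was -1.49 and -1.49 without M2rtTA and -1.85 and -1.02 with it, all past the threshold. ETV4 (chromosome 17, 43527846-43546340), the other PEA3-group factor of the 10, had 3 to 103 counts per library and passed in no comparison with OVOL2, with values from -0.61 to 0.11. RefSeq places ETV5-AS1 over ETV5 and DHX8 over ETV4, and whether the counting used strand is not stated, so a part of these counts may come from the overlapping genes. The same holds for DUSP6, SPRY4 and PHLDA1, which also have overlapping RefSeq genes.

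FOSL1 (chromosome 11, 65892049-65900545), the FRA1 subunit of AP-1, was called lower with OVOL2 in PANC1, PK45H and the mean over lines with M2rtTA. Without M2rtTA it was called in no line. With M2rtTA, PANC1 had 626, 540 and 899 CPM with mCherry and 321, 367 and 392 with OVOL2. PK45H had 512, 512 and 480 CPM with mCherry and 402, 370 and 326 with OVOL2. KP4 had 154, 161 and 159 CPM with mCherry and 190, 147 and 211 with OVOL2. The groups of PANC1 and PK45H did not overlap and KP4 did, with 2 OVOL2 libraries above its mCherry libraries. The log2 fold changes were -0.90 (SE 0.16, adjusted p = 0.00229) in PANC1, -0.45 (SE 0.11, adjusted p = 0.015) in PK45H and 0.21 (SE 0.14, adjusted p = 0.328) in KP4. The PANC1 call was lost with untreated libraries as the control (-0.47, adjusted p = 0.0649), and the PK45H call on thinning to the smallest total (-0.31, adjusted p = 0.121), with only the groups compared (adjusted p = 0.0816) and without OVOL2 + M2rtTA replicate 3 (adjusted p = 0.065). The test of the difference between lines passed (adjusted p = 0.00132), and the mean over lines was -0.38 (SE 0.08, adjusted p = 0.000286).

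Without M2rtTA, FOSL1 had 497, 524 and 553 CPM with mCherry and 433, 425 and 458 with OVOL2 in PANC1. PK45H had 586, 670 and 691 CPM with mCherry and 725, 651 and 641 with OVOL2. KP4 had 203, 236 and 202 CPM with mCherry and 240, 267 and 256 with OVOL2. OVOL2 was lower in PANC1 and higher in KP4 without overlap, and neither passed: the log2 fold changes were -0.25 (adjusted p = 0.456) and 0.26 (adjusted p = 0.355), with 0.02 (adjusted p = 0.935) in PK45H. In the mean over lines the change was 0.03 (SE 0.08, adjusted p = 0.858). PHLDA1 (chromosome 12, 76025447-76031776), a pleckstrin-homology domain protein induced by ERK, ranged over 304 to 2199 counts per library and passed in no comparison of OVOL2 with mCherry. With untreated libraries as the control, PK45H with M2rtTA passed, at 0.46 (adjusted p = 0.0419). Against mCherry, the PHLDA1 log2 fold changes were -0.28 to 0.27 within lines, and 0.07 (SE 0.07, adjusted p = 0.595) and -0.06 (SE 0.07, adjusted p = 0.582) as means over lines.

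The control comparisons asked whether virus and selection, or M2rtTA without OVOL2, moved these genes. For mCherry against untreated, edgeR called 0 of the 10 genes in KP4, PANC1 and PK45H, beside 0%, 0.598% and 0.00736% of all genes, with 1, 2 and 0 at an unadjusted p under 0.05. For mCherry with M2rtTA against mCherry it called 0 in each line, beside 0%, 0% and 0.0294%, with 2, 2 and 3 at an unadjusted p under 0.05. As means over lines both called 0, beside 0.489% and 0.0602%, with 0 and 1 at an unadjusted p under 0.05, and DESeq2 called 0 in each of these comparisons. Several of these values were large and did not pass. SPRY2 in KP4 stood at 5.67 ± 0.757 CPM (SD, n = 3) with mCherry and 2.24 ± 0.666 untreated, a log2 fold change of 1.35 (SE 0.35, adjusted p = 0.499). SPRY4 in PANC1 stood at 40.4 ± 6.32 and 26.0 ± 3.33 CPM, a log2 fold change of 0.65 (SE 0.18, adjusted p = 0.166). DUSP5 was higher with M2rtTA than without it among mCherry libraries, by a mean over lines of 0.32 (SE 0.08, adjusted p = 0.154). ETV5 in PANC1 differed between mCherry and untreated by 0.75 (SE 0.36, adjusted p = 0.506). For M2rtTA without OVOL2, the FOSL1 log2 fold changes were -0.43 for KP4, 0.38 for PANC1 and -0.38 for PK45H, each at an unadjusted p under 0.05 in edgeR, with adjusted p-values of 0.622, 0.768 and 0.298.

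The next test asked if the response to OVOL2 was the same with and without M2rtTA. Over the 3 lines, 1 of the 10 genes passed, beside 7.72% of all genes: FOSL1, whose effect was lower with M2rtTA by a log2 difference of -0.41 (SE 0.11, adjusted p = 0.0202; thinned to the smallest total, -0.35 and adjusted p = 0.0895). Its differences were -0.65 in PANC1, -0.47 in PK45H and -0.04 in KP4. Within single lines edgeR called 0 of the 10, beside 1.43% of all genes in KP4, 0.136% in PANC1 and 1.60% in PK45H. At an unadjusted p under 0.05 there were 4 genes in KP4, 3 for PANC1 and 2 for PK45H, and DESeq2 also called 0 in each line. SPRED1 in PANC1 had one of the larger differences, -0.99 (SE 0.30, adjusted p = 0.236), and in PK45H the opposite sign, 0.85 (SE 0.37, adjusted p = 0.25). The test of a difference between lines called 1 gene of 10 without M2rtTA (SPRY4), beside 2.74% of all genes, and 2 with it (DUSP5 and FOSL1), beside 7.56%.

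In untreated cells the line means of the 10 genes spanned from 1.76-fold (SPRED1) to 13.1-fold (DUSP4), and most of the genes ordered the lines differently. The test over the 5 lines called 9 of the 10, beside 57.8% of all genes, and ETV5 did not pass (adjusted p = 0.078). DUSP4 had 62.8, 62.8 and 80.8 CPM in PK45H, 57.9, 39.9 and 56.6 in HPAFII, 19.5, 24.2 and 20.9 in PATU8988S, 9.14, 11.9 and 7.90 in KP4 and 4.07, 6.84 and 4.88 in PANC1. PK45H and HPAFII did not differ past the threshold (adjusted p = 0.206), and each later step of that order did, so that the means spanned 13.1-fold. DUSP6 had 229, 104 and 193 CPM in HPAFII, 82.6, 104 and 112 in KP4, 46.6, 59.4 and 52.0 in PATU8988S, 21.6, 19.4 and 22.0 in PK45H and 16.3, 14.1 and 19.2 in PANC1. Its first 3 steps passed (adjusted p = 0.0119, 0.00884 and 0.000801), PK45H and PANC1 did not differ past the threshold (adjusted p = 0.368), and the means spanned 10.6-fold. Thus PK45H held, with HPAFII, the highest DUSP4 and, with PANC1, the lowest DUSP6.

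FOSL1 stood at 581 ± 24.5 CPM in PK45H and 514 ± 68.6 in PANC1, which did not differ past the threshold, then at 267 ± 59.1 in HPAFII, 212 ± 23.0 in KP4 and 119 ± 4.21 in PATU8988S (SD, n = 3). PHLDA1 was highest in HPAFII (433 ± 76.8 CPM), then in KP4 (300.5 ± 9.91) and PANC1 (293 ± 34.6), which did not differ past the threshold, and lowest in PK45H (119.6 ± 26.1) and PATU8988S (104 ± 1.71). The step from PANC1 to PK45H passed (adjusted p = 9.91e-05). SPRY4 ran from 45.9 ± 0.968 CPM in KP4 to 13.3 ± 1.63 in PK45H, and no neighbouring lines differed past the threshold. ETV4 was lowest in PANC1 at 1.99 ± 0.656 CPM, below the next line, HPAFII (adjusted p = 0.0128), and highest in KP4 at 14.9 ± 2.68 CPM. DUSP5 was lowest in PATU8988S at 12.4 ± 0.481 CPM, below PANC1 at 19.5 ± 2.59 (adjusted p = 0.0204). SPRY2, SPRED1 and ETV5 had no neighbouring lines that differed past the threshold, and their means spanned 4.68-fold, 1.76-fold and 1.87-fold.

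Taken pair by pair, 4 to 7 of the 10 genes differed between any 2 untreated lines. HPAFII was higher than PATU8988S in 6, and the other 4 did not pass, beside 20.2% of all genes called. HPAFII was higher in 4 and lower in 2 against KP4 (beside 29.9%), higher in 5 and lower in 1 against PANC1 (28.7%), and higher in 4 and lower in 2 against PK45H (25.2%). PATU8988S was higher in 2 and lower in 5 against KP4 (32.5%), higher in 3 and lower in 3 against PANC1 (29.3%), and higher in 1 and lower in 3 against PK45H (28.3%). Among the transduced lines, KP4 was higher in 3 and lower in 1 against PANC1 (21.9%), and higher in 4 and lower in 3 against PK45H (23.5%). PANC1 was higher in 2 and lower in 3 against PK45H (25.6%).

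The mean of HPAFII and PATU8988S against that of KP4, PANC1 and PK45H called 3 of the 10 genes, beside 34.8% of all genes (17.4% higher and 17.4% lower). DUSP4 was higher by a log2 difference of 1.15 (SE 0.14, adjusted p = 1.95e-05) and DUSP6 by 1.57 (SE 0.15, adjusted p = 1.49e-06), and FOSL1 was lower, at -1.15 (SE 0.11, adjusted p = 1.87e-06). Each of these values is a mean over unlike lines. PK45H, in the lower set, had the highest mean DUSP4 of all, though not past the threshold against HPAFII (adjusted p = 0.206). PATU8988S had less DUSP6 than KP4 (-0.90, adjusted p = 0.00884). FOSL1 was at 266.9 CPM in HPAFII and 212 CPM in KP4, which did not differ past the threshold (adjusted p = 0.104). HPAFII replicate 2 was below the other 2 libraries of its group in DUSP6 (104 CPM), SPRY4 (10.9 against 37.8 and 36.4 CPM) and DUSP5 (26.6 against 46.2 and 39.6 CPM). Without that library 5 genes passed: DUSP4, DUSP6, FOSL1, SPRED1 (0.43, adjusted p = 0.0186) and ETV5 (-0.58, adjusted p = 0.032). Leaving out PATU8988S replicate 2 also brought ETV5 past the threshold (-0.68, adjusted p = 0.0102). DUSP5 was not called in this comparison (-0.20, adjusted p = 0.234).

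**Figure D3:**
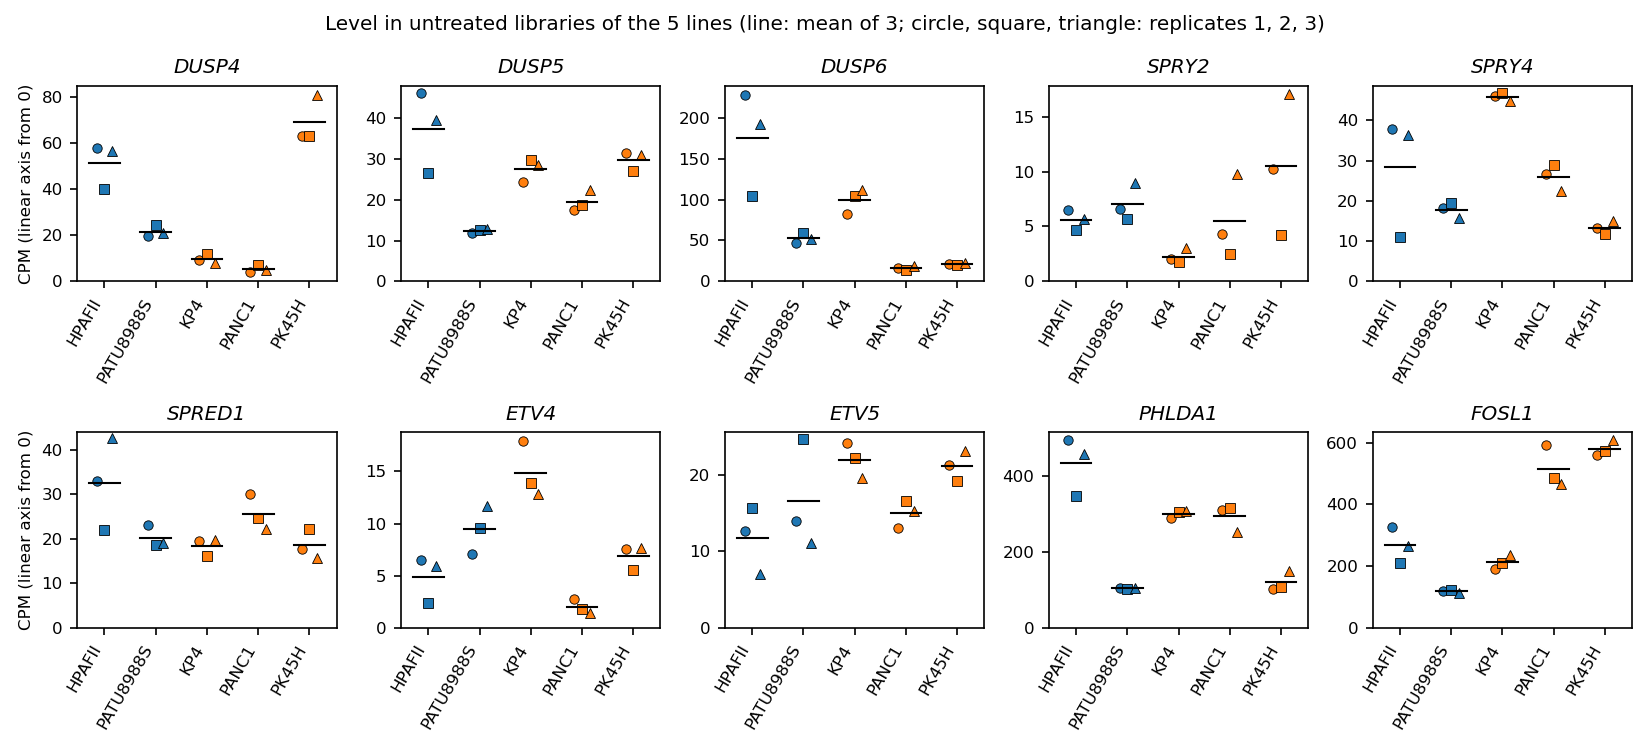
CPM of the 10 genes in the untreated libraries of 5 lines, with a bar at the mean of 3; circles, squares and triangles are replicates 1, 2 and 3, blue marks HPAFII and PATU8988S and orange the 3 lines that were also transduced. DUSP4 runs from PK45H at 68.8 CPM to PANC1 at 5.27 CPM, DUSP6 from HPAFII at 175 CPM to PANC1 at 16.6 CPM, and HPAFII replicate 2 is low for DUSP6 and SPRY4.

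The 10 genes did not share one pattern over the 17 group means. Of the 45 pairs, 19 had a Pearson correlation of log2 CPM above 0 and 26 below, with a median of -0.06, a lowest value of -0.773 (DUSP4 with SPRY4) and a highest of 0.788 (SPRY4 with PHLDA1). Groups of the same line share its baseline, and these values are given as a description. Among 10267 other genes, the gene most like DUSP4 in this measure was ANXA1 (0.971), and the one most like ETV5 was ANXA5 (0.935). FOSL1 was most like GNA12 (0.946), PHLDA1 most like VPS9D1-AS1 (0.926) and SPRY4 most like F2RL1 (0.922). DUSP6 was most like HSH2D (0.918), ETV4 most like PIK3R2 (0.916) and SPRY2 most like PRPF6 (0.887). SPRED1 was most like NR2C1 (0.884), and DUSP5 had the lowest best match, MRPL55 (0.852).

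Of 27 genes of the cascade that feeds these genes, 2 rose and 2 fell with OVOL2 without M2rtTA, where 9.32% of all genes were called higher and 8.81% lower. With M2rtTA, 9 rose and 6 fell, beside 15.7% and 17.3% of all genes, with a median log2 fold change of 0.10 and -0.11. EGFR, the receptor of epidermal growth factor, rose by 0.68 (SE 0.09) and 0.74 (SE 0.09), and MAP2K1, which encodes the kinase MEK1, fell by 0.59 (SE 0.08) and 0.69 (SE 0.08). Without M2rtTA, MAPK3 (ERK1) also rose, by 0.46, and SOS2, a RAS exchange factor, fell by 0.65. With M2rtTA, LZTR1, which promotes RAS degradation, rose by 0.59 and SHOC2, a RAF activator, by 0.46, while RPS6KA3, a kinase downstream of ERK, fell by 0.63 and MAP2K2 (MEK2) by 0.41.

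Of 32 other ERK-responsive genes, 28 passed the filter on low counts; 5 rose and 2 fell without M2rtTA (beside 9.32% and 8.81% of all genes), and 10 rose and 3 fell with it (beside 15.7% and 17.3%), with medians of 0.19 and 0.21. ETV1, the remaining PEA3-group factor, fell by 0.81 (SE 0.21, adjusted p = 0.00608) and 0.52 (SE 0.20, adjusted p = 0.0471), in the direction of ETV5. PLAU, the urokinase gene, fell by 1.74 and 1.39, and EMP1 by 0.75 with M2rtTA. The cytokine gene LIF rose by 0.52 and 0.73. PHLDA2 and KLF6 rose by 0.66 and 0.46 without M2rtTA, and the immediate-early genes EGR1 and IER2 by 1.12 and 0.47 with it. Of the 9 other AP-1 subunits, 3 rose and 1 fell without M2rtTA, and 5 rose and 1 fell with it, beside the same shares of all genes. JUNB rose by 0.74 and 0.85, ATF3 by 0.91 and 1.34, JUND by 0.50 without M2rtTA and FOSB by 2.03 with it, and JUN fell by 0.33 and 0.42. As a mean over lines with M2rtTA, FOSL1 was lower, as JUN was, while JUNB, ATF3 and FOSB were higher. That FOSL1 mean came from PANC1 and PK45H, and KP4 was at 0.21. Without M2rtTA, where JUN also fell, the FOSL1 mean was 0.03.

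**Figure D4:**
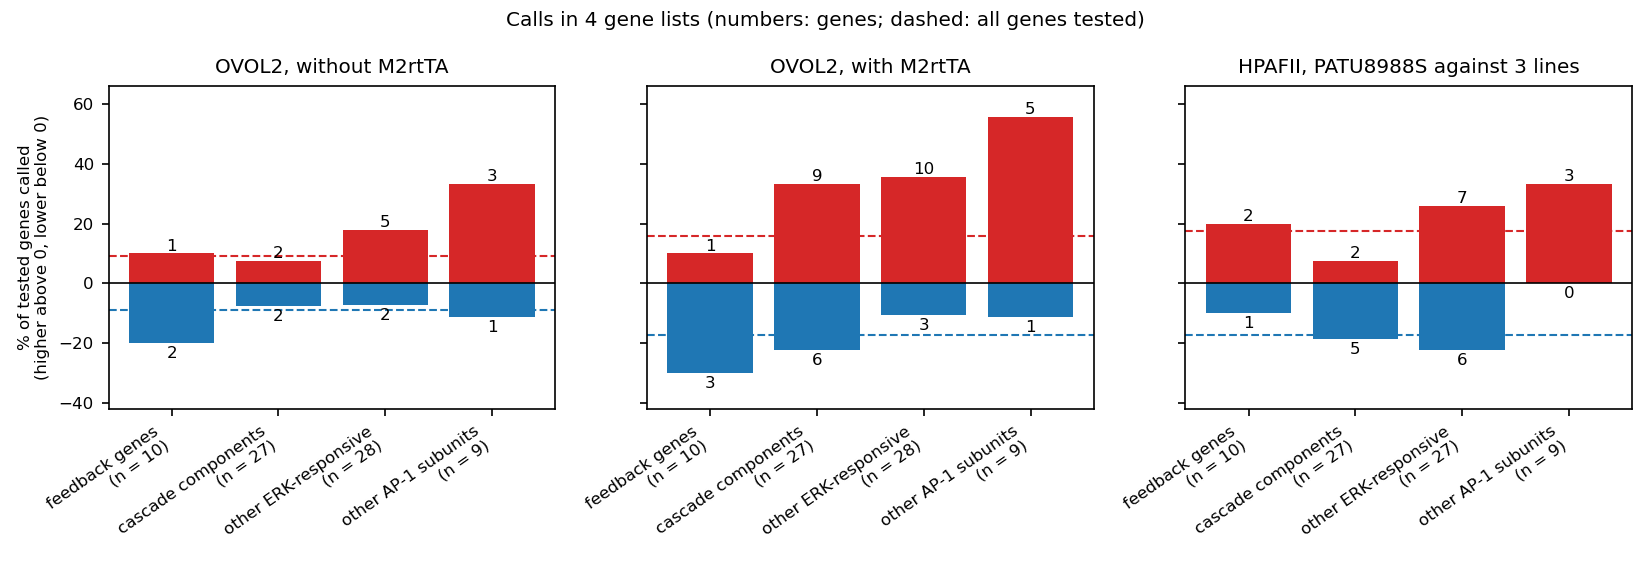
Percent of the tested genes of 4 lists that were called higher (above 0) or lower (below 0), with the number of genes at each bar, for OVOL2 against mCherry over 3 lines without and with M2rtTA and for HPAFII and PATU8988S against KP4, PANC1 and PK45H; dashed lines are all genes tested (9.32% higher and 8.81% lower in the left panel). The dashed lines lie at 15.7% higher and 17.3% lower in the middle panel, and at 17.4% each in the right panel. With OVOL2, the feedback genes called are DUSP5, higher, and ETV5 and SPRED1, lower, with FOSL1 also lower where M2rtTA is present. The AP-1 subunits and other ERK-responsive genes have more higher than lower calls there. Whether the lists differ from each other or from all genes was not tested.

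Between the untreated lines, 17.4% of all genes were called higher and 17.4% lower in the set of HPAFII and PATU8988S, and the counts of the lists are to be read beside these shares. That set had 2 cascade genes higher (YWHAZ and MAPK3) and 5 lower, GRB2, MAP2K2 and ARAF with the smallest p-values. Of 27 other ERK-responsive genes tested, 7 were higher and 6 lower. EPHA4 (2.14), CXCL8 (2.59) and SPRY1 (0.85), a Sprouty gene outside the 10, were higher, and DUSP1 (-1.58), PLAU (-1.38) and VGF (-1.23) lower, as log2 differences. Of the AP-1 subunits BATF (4.28), FOS (2.31) and JUNB (0.79) were higher.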

How the data were processed

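PLATE-seq libraries of 5 pancreatic cancer lines (51 libraries, 17 groups of 3, grouped by their labels) were read from a deposited table of whole-number counts per gene symbol. The submitters' processing notes name kallisto 0.44.0 and GRCh38, without giving their role; how the authors turned kallisto's estimates into whole counts, and whether strand was used, is not given in the sources used here. Totals were 1165399 to 7490556 counts.

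Counts were analysed as deposited with edgeR 4.0.16 in R 4.3.3: filterByExpr by group (minimum count 10, minimum total 15), TMM scaling, the quasi-likelihood test, and Benjamini-Hochberg adjustment over all genes tested, with a threshold of 0.05. Fits were made within each transduced line (15 libraries), over the 3 lines (45 libraries, mean of the 3 contrasts, and tests of the difference between lines and between arms), and over the untreated libraries (15). The standard error is the size of the log2 fold change divided by the square root of F. CPM are counts scaled to a common total by TMM, and log2 CPM for correlations used a prior count of 2. All 10 genes passed the filter in every fit. The fits were tested on simulated data.

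Alternatives were DESeq2 1.42.0, RLE scaling (limma 3.58.1 was loaded with edgeR), other filters, robust dispersion, 1 fit of all libraries, only the groups compared, thinning to the smallest total, the replicate number as a block, and leaving out each library. The members and lists were chosen with earlier results of these data known. Named were the 10 members, from each other list at most 3 genes past the threshold in each direction with the smallest p, and per member the most correlated gene with a mean of at least 5 CPM. Promoters and positions are RefSeq's, GRCh38.p14.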

Additional observations from a re-analysis of the deposited data

Results flagged for a closer look

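The effect of OVOL2 on SPRY4 differed between lines without M2rtTA (edgeR, adjusted p = 0.00077), with log2 fold changes of -1.06 in KP4, -0.12 in PANC1 and 0.58 in PK45H. With M2rtTA, the effect on DUSP5 differed between lines (adjusted p = 0.0102), with 0.28 for KP4, 1.06 for PANC1 and 0.98 for PK45H. The effect on FOSL1 differed between lines in the same arm (adjusted p = 0.00132), with 0.21 for KP4, -0.90 for PANC1 and -0.45 for PK45H. Over the 3 lines, the FOSL1 effect also differed between the arms (adjusted p = 0.0202), at 0.03 without and -0.38 with M2rtTA. Thinned to the smallest total, the line differences of SPRY4 (adjusted p = 0.0954) and DUSP5 (0.348) and the FOSL1 difference between arms (0.0895) did not pass. That of DUSP5 also did not pass with only the groups compared (0.0728).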

How the results depend on the processing

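No value of a gene of the 10 reversed past the threshold under any alternative run. Of 10198 such values, 9988 stayed on the same side of the threshold, 150 lost a call and 60 gained one. The 9988 include tests called in neither fit, so they are not a number of calls kept. The SPRY4 call in KP4 with M2rtTA was lost in 19 of 25 alternatives, and that of DUSP4 in PK45H with M2rtTA in 14 of 25. For SPRED1, the call of the mean without M2rtTA was lost in 15 of 55. The means of DUSP5 and ETV5 kept theirs in all 55. Of the 10198 values, 226 took the other sign with neither value past the threshold. Thinning all libraries to the smallest total left 1 called gene in KP4 in each arm, 2 in PANC1 with M2rtTA, 0 for the difference between arms over lines, and 0 and 1 for the difference between lines without and with M2rtTA; fewer counts enter that fit. With only the groups compared, PK45H with M2rtTA had 2 called and the line difference with M2rtTA 1; the cause was not tested. With untreated libraries as the control, chosen after seeing the data, KP4 with M2rtTA had 5 called, PANC1 with M2rtTA 2 and PANC1 without it 2.

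Leaving out 1 library gave 1 to 3 called in KP4 with M2rtTA (1 without OVOL2 + M2rtTA replicate 3). PANC1 with M2rtTA gave 2 to 4 (2 without mCherry + M2rtTA replicate 1 or OVOL2 + M2rtTA replicate 2 or 3). PANC1 without M2rtTA gave 1 to 2 (2 without OVOL2 + M2rtTA replicate 1), and the line difference without M2rtTA 1 to 2 (2 without that library or PK45H OVOL2 replicate 2). The untreated set comparison gave 3 to 5 (5 without HPAFII replicate 2).

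The replicate number as a block gave 2 and 4 called genes in KP4 with and without M2rtTA, 4 and 1 in PANC1, 3 and 3 in PK45H, and 4 and 3 over lines. The block gave 1 for the difference between arms, 2 and 1 for the line differences with and without M2rtTA, 9 for the 5 untreated lines and 3 for the set comparison, none over 1.5 times from the count without the block. It brought DUSP6 in KP4 without M2rtTA past the threshold (0.0442) and lost SPRY4 in KP4 (0.0716) and DUSP4 in PK45H (0.0667) with M2rtTA. Same-numbered libraries deviated together little if at all: the median correlation of their deviations was -0.00626 in KP4, 0.0263 in PANC1 and 0.00421 in PK45H. Between libraries of other groups and numbers it was 0.0266, -0.0262 and 0.00827. A library correlated best with its own number in 2, 8 and 1 of 15, most often in PANC1. With medians this near to each other, the numbers were not taken to pair the samples. Low counts limit SPRY2 (6 to 118) and ETV4 (3 to 103).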
